A study of Drosophila melanogaster with 2 samples.

Results

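The proteasome is the protease complex that degrades ubiquitin-tagged proteins in every cell. A core particle, built of alpha and beta subunit rings, encloses the proteolytic sites, and a regulatory particle of Rpt ATPases and Rpn subunits binds, unfolds and threads the substrate. Drosophila melanogaster carries, beside the broadly used subunit genes, paralogs named with the suffix T or R, several of which are known from the male germline. The genes described here are the 48 of 13968 protein-coding genes on the assembled arms whose Ensembl name begins with Prosalpha, Prosbeta, Rpt or Rpn and a number. Of the 48, 32 were taken as broadly used and 16 as paralogs, by the suffix T or R alone. The broadly used genes comprised 14 core genes (7 Prosalpha and 7 Prosbeta) and 18 regulatory genes (6 Rpt and 12 Rpn), and the paralogs comprised 11 core and 5 regulatory genes. Expression was not measured in this series, so the breadth of use of these genes was not checked against the data.

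The measurement was chromatin immunoprecipitation with sequencing (ChIP-seq) for H2.0, a transcription factor with a homeodomain, known from visceral muscle in the fly embryo. There was 1 group, whole embryos of 0 to 24 h from the transgenic strain H2.0-GFP, in which H2.0 is fused to eGFP, and it had 2 biological replicates. Chromatin was sonicated to fragments of 200 to 800 bp and precipitated with an antibody to GFP. The sources used here do not say how the fusion gene is driven, the embryos mix all tissues and stages of that day, and no untagged or other control library was used here, so peaks stand for signal, and binding of H2.0 to them was not shown. The pooled thresholded list held 4590 peaks, 4565 of them on the arms, and the replicate lists held 3059 and 3124. Each peak has a signal, the enrichment value the authors deposited, which is not scaled between lists, and a summit, its highest point. A gene counted as having a promoter summit when a summit lay within 500 bp of any of its transcript starts.

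Few proteasome promoters carried a peak, and 4 stretches of sequence are shown. They were taken at the strongest member peak, at a peak shared with a divergent gene, and at peaks that differed between lists. All were read 5′ to 3′ from the RefSeq copy of the Release 6 assembly (dm6). The first is the promoter of Rpn3, at chr2L:19051540-19051839 on the plus strand, from 250 bases before the gene start to 50 after it. It holds the summit of the strongest member peak, which runs from −62 to 82 bp, so the stretch and the peak overlap only in part. Capitals mark an 82-base stretch that occurs in 2 copies in direct repeat, which run into each other.
Rpn3: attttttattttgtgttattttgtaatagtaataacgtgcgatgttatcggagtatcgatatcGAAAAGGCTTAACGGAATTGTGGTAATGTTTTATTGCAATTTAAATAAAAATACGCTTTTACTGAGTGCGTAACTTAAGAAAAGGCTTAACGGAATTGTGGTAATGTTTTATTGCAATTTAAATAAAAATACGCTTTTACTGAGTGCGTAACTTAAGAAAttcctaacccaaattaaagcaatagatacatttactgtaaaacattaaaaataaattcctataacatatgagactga
The other 3 are windows of 101 bases centred on a summit and written along the member's strand. They are from Rpn5 (pooled list, chr3R:5789059-5789159, plus strand), Prosbeta2 (conservative list, chr3L:14999630-14999730, plus strand) and Rpn11 (list of replicate 2, chr2L:5060105-5060205, minus strand). Capitals mark matches to the DNA replication-related element (DRE, TATCGATA), to TATAAA and to TCAGT, and in Rpn11 a DRE overlaps TATAAA.
Rpn5: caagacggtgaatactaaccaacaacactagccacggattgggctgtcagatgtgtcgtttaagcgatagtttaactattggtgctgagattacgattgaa
Prosbeta2: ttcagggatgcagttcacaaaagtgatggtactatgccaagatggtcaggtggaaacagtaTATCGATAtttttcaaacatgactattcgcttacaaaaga
Rpn11: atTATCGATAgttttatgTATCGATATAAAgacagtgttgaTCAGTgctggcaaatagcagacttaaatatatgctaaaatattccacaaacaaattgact

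In the pooled thresholded list, 4 of the 48 genes (8.33%) had a promoter summit, beside 2546 of all 13968 protein-coding genes (18.2%). All 4 were broadly used genes, Rpn3, Rpn6, Rpn5 and Prosalpha3, which is 12.5% of the 32. None of the 16 paralogs had such a summit. Among the broadly used genes, 1 of 14 core genes and 3 of 18 regulatory genes had one, and the 3 regulatory genes were all among the 12 Rpn genes. No Prosbeta and no Rpt gene had a summit in that list. The median signal of the 4 was 115.3, beside 112.1 over the 2546 genes with a promoter summit. No test was run between these shares, and with counts this small a single gene changes each of them visibly.

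The count of members ran from 3 to 6 over the 4 thresholded lists. In the list of replicate 1 alone, 3 members had a promoter summit (6.25%, against 12.8% of all genes), and in that of replicate 2 there were 5 (10.4%, against 14.5%). The same 3 genes, Rpn3, Rpn5 and Rpn6, had a summit in both replicate lists, where 10.7% of all genes did. In the conservative list 6 members did (12.5%, against 17.7%), the additional genes being Prosbeta2 and Rpn13. All of these were broadly used genes, whose share was 18.8% of the 32 in the conservative list, 9.38% in replicate 1 and 15.6% in replicate 2. It was thus above the share of all genes in the conservative list and in replicate 2, and below it in the pooled list and in replicate 1. No paralog had a promoter summit in any of these 4 lists. At the other end, the ranked pooled list, which holds pooled peaks before thresholding, placed a peak at 38 of the 48 genes (79.2%), close to the 80.8% of all genes. Prosbeta5, Prosbeta5R2 and Rpt4R had no peak in it but had one in the ranked list of a replicate.

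**Figure D1:**
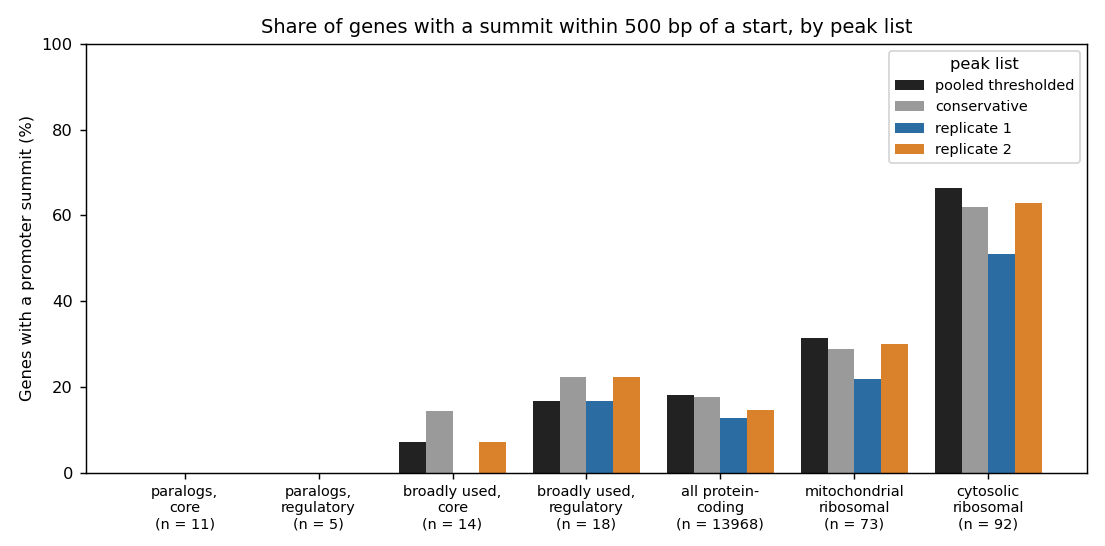
Percentage of genes with a summit within 500 bp of a start (vertical axis) in 4 peak lists (bar colours), for the paralogs, the broadly used core and regulatory genes, all protein-coding genes and the ribosomal protein genes, with the number of genes in each group under its name. The paralog bars are at 0 in all 4 lists, the broadly used core genes reach 14.3% and the regulatory genes 22.2%, and the cytosolic ribosomal protein genes stand at 66.3% in the pooled list.

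For scale, other sets of housekeeping genes were counted by the same rule. Of 92 cytosolic ribosomal protein genes, 61 (66.3%) had a promoter summit in the pooled list, with a median signal of 138.8. Of 73 mitochondrial ribosomal protein genes, 23 (31.5%) had one. The proteasome genes therefore showed the lowest share of these sets, at 8.33% of the 48 with the paralogs and 12.5% of the 32 broadly used genes alone. This describes this list only and was not tested.

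Rpn3 had the strongest peak of the family. Rpn3 (FBgn0261396, chr2L:19051790-19053681, plus strand) encodes a subunit of the lid, the part of the regulatory particle that surrounds the deubiquitinase. Its signal was 103.4 in replicate 1, 122.8 in replicate 2 and 231.9 in the pooled list, where it ranked 587 of 4565. The ranks in the replicate lists were 794 of 3047 and 478 of 3110, so the peak lay in the upper part of all 3 lists. The pooled summit lay 8 bp downstream of the gene start, in the 5′ UTR, and the replicate summits at −7 bp and 8 bp from it. The divergent gene l(2)37Bb starts at −178 bp, farther from the summit than Rpn3 does.

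The Rpn3 peak was narrow. It spanned 145 bp in the pooled list, where 78.2% of peaks had the median width of 296 bp and 10.1% were as narrow or narrower. In replicate 1 it spanned 71 bp, a width reached or undercut by 14 of 3047 peaks (0.459%), and in replicate 2 it spanned 103 bp, which 6.27% of peaks reached or undercut. The 82-base repeat shown above begins 187 and 109 bases before the gene start, and its second copy ends 28 bases before it, so the pooled and replicate 2 peaks reach into that copy, the replicate 1 peak does not, and all 3 summits lie beyond it. Such a long exact repeat was found in 6 of 13960 promoters, and the next longest in a member promoter, that of Prosbeta2, was 16 bases. The part of the repeat in the width and signal of the peak was not tested.

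Rpn6 (FBgn0028689, chr2R:14750166-14752910, minus strand) encodes another lid subunit. It had signals of 54.9 in replicate 1, 59.8 in replicate 2 and 120.6 in the pooled list. It ranked 2015 of 3047, 1642 of 3110 and 1666 of 4565, which is below the middle in replicate 1, near it in replicate 2 and above it in the pooled list. The gene has 2 annotated starts, and the summit lay in the intron between them, at −91 bp from the downstream start and on the side of the upstream one, which is at −639 bp. It was thus counted only through the downstream start. The gene ave begins between the starts, at −250 bp. The pooled summit lay at −159 bp from ave's start, but that of replicate 2 was nearer to ave, at −121 bp, than to Rpn6, at −129 bp.

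Rpn5 (FBgn0028690, chr3R:5789493-5791569, plus strand) encodes a lid subunit as well. It had signals of 47.4 in replicate 1, 61.2 in replicate 2 and 110.1 in the pooled list. Its ranks were 2406 of 3047, 1578 of 3110 and 1883 of 4565, lower in replicate 1 than in the others. The pooled summit lay at −384 bp, the farthest from its start of the 4 genes. That summit was at −35 bp from a start of the divergent gene Hat1, a histone acetyltransferase. The peak, whose sequence is printed above, thus lies at a Hat1 start and in an intron of Hat1's longer transcript. The window held none of the 9 motifs searched. A far stronger peak, with a signal of 476.5, lay beyond the other end of Rpn5, at −98 bp from the start of Hpf1.

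Prosalpha3 (FBgn0261394, chr2R:20994900-20996118, plus strand), a subunit of the alpha ring, was the only core gene with a promoter summit in the pooled list and in that of replicate 2. Its signal was 54.6 in the list of replicate 2 and 94.4 in the pooled list, where it ranked 2292 of 4565. In replicate 1 its ranked peak had a signal of 43.7 and an irreproducible discovery rate (IDR, the estimated share of irreproducible peaks among those ranked at least as high) of 0.0118, just over the 0.01 at which the lists were cut. The pooled summit lay at −52 bp, on the arm 2R, and no other protein-coding start was nearer. Its window was the only one of the 4 member summits to hold a DRE, which 78 of 4565 summits (1.71%) held.

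**Figure D2:**
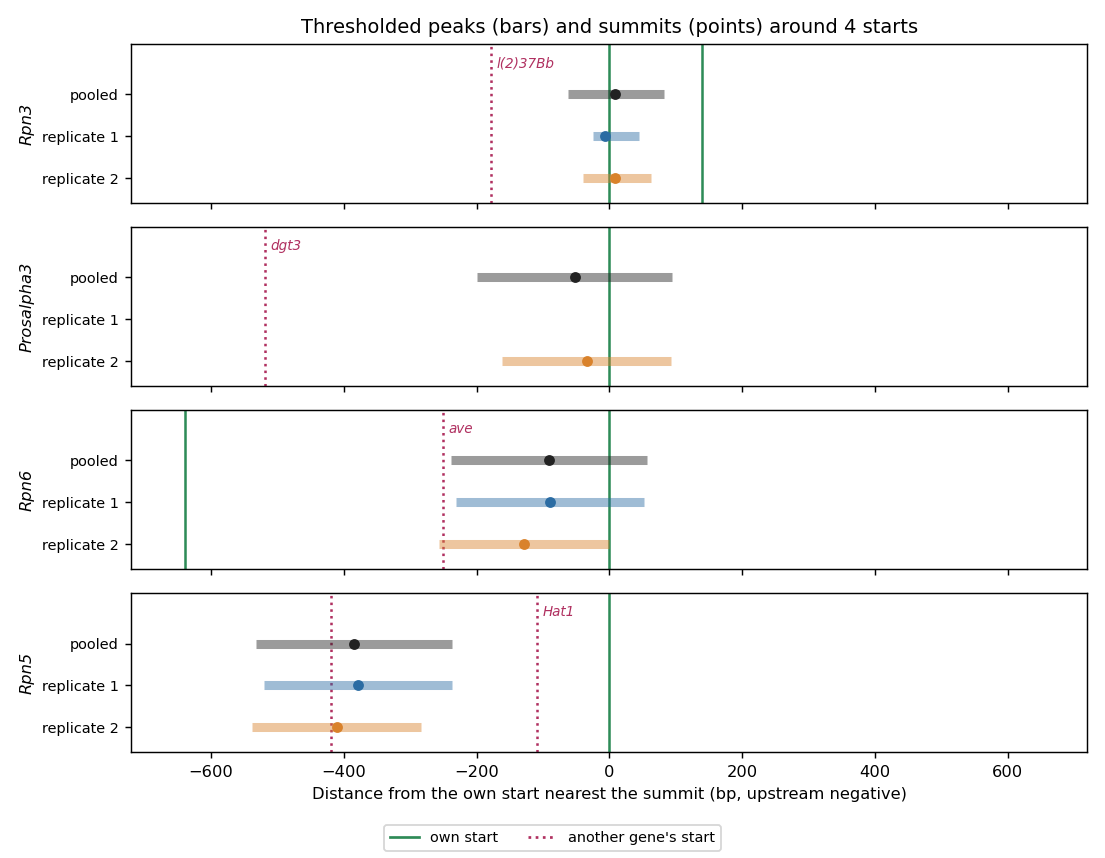
Thresholded peaks (bars) and their summits (points) in the pooled list and each replicate around the starts of Rpn3, Prosalpha3, Rpn6 and Rpn5; the horizontal axis is the distance in bp from the own start nearest the summit, with green lines for own starts and dotted red lines for starts of other protein-coding genes. The Rpn3 and Prosalpha3 summits sit within 52 bp of an own start, whereas the Rpn5 peaks lie over a start of Hat1.

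The members nearest to the threshold differed between lists. Rpn13, a ubiquitin receptor of the regulatory particle, had a ranked pooled peak with a signal of 73.0 at −14 bp and an IDR of 0.0133, outside the pooled threshold. Its peaks in the replicates had signals of 34.6 and 32.8. In the ranked list of both replicates its IDR was 0.00245, and the conservative list, drawn from that ranking, holds it. Prosbeta2, the subunit with trypsin-like activity, had an IDR of 0.013 in the ranked pooled list and of 0.00366 in the other, with a signal of 53.4, and 28.5 and 39.2 in the replicates. That summit lay at −271 bp, and at −14 bp from the start of the divergent gene mRpL39. A weaker Prosbeta2 peak of 30.2, which overlaps the stronger one, lay at −72 bp. The deposited q-value was 0.353 for the stronger Prosbeta2 peak, 0.9675 for the weaker one and 0.0528 for the Rpn13 peak. Of the members inside the pooled threshold, Prosalpha3 was the closest to it, with 94.4 and an IDR of 0.000349.

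By ranked pooled signal, Rpt5, Rpn11 and Rpn12 followed. By IDR, Rpn10 was nearer to the threshold than Rpn11 and Rpn12, with a lower signal of 40.6. Its IDR was 0.0706 in the ranked pooled list and 0.0241 in the ranked list of both replicates. Rpt5, an ATPase of the regulatory base, had a ranked pooled signal of 49.3 at −5 bp with an IDR of 0.048, and 16.04 and 32.5 in replicates 1 and 2. Rpn11, the deubiquitinase of the lid, had 44.7 at −348 bp with an IDR of 0.0755, and 18.9 and 36.1 in the replicates. The peak of replicate 2, at −365 bp, passed that replicate's own threshold with an IDR of 0.00658. Its q-value was 0.0671, and it lies over the pair of DRE printed above. Rpn12, a lid subunit, had 43.5 at −42 bp, with 18.6 and 28.6 in the replicates and an IDR of 0.331. For Rpt5, Rpn11 and Rpn12 replicate 2 held the higher value, on a scale that is not shared between the lists.

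Among the ranked peaks, the Rpn genes had the highest median signal of the 4 families. All 12 broadly used Rpn genes had a ranked pooled promoter peak, as 80.8% of all genes did, with signals from 23.5 to 231.9 and a median of 42.1. The 5 of 6 Rpt genes with one had a median of 21.7, the 5 of 7 Prosalpha genes 17.6, and the 5 of 7 Prosbeta genes 17.4. The median over all genes with such a peak was 31.0, and 12 of the 27 broadly used genes with a peak exceeded it. These medians leave out the genes without a peak, and no test was run on them. They also rest largely on peaks outside the threshold. Of the Rpn genes, only Rpn3, Rpn5 and Rpn6 were in the pooled thresholded list. Rpn1, Rpn2, Rpn7, Rpn8, Rpn9 and Rpn12 had an IDR of 0.331 or higher. Rpn3, Rpn6, Rpn8, Rpn9, Rpn10 and Rpn13 have more than 1 annotated start, as do Prosalpha5, Prosbeta7, Rpt2 and Rpt3. More sequence was searched at such genes, and its part in the medians was not tested. Prosalpha1, Prosalpha7, Prosbeta5, Prosbeta6 and Rpt4 had no ranked pooled peak at a start, though Prosbeta5, the subunit with chymotrypsin-like activity, had a ranked peak of 3.02 in replicate 1.

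**Figure D3:**
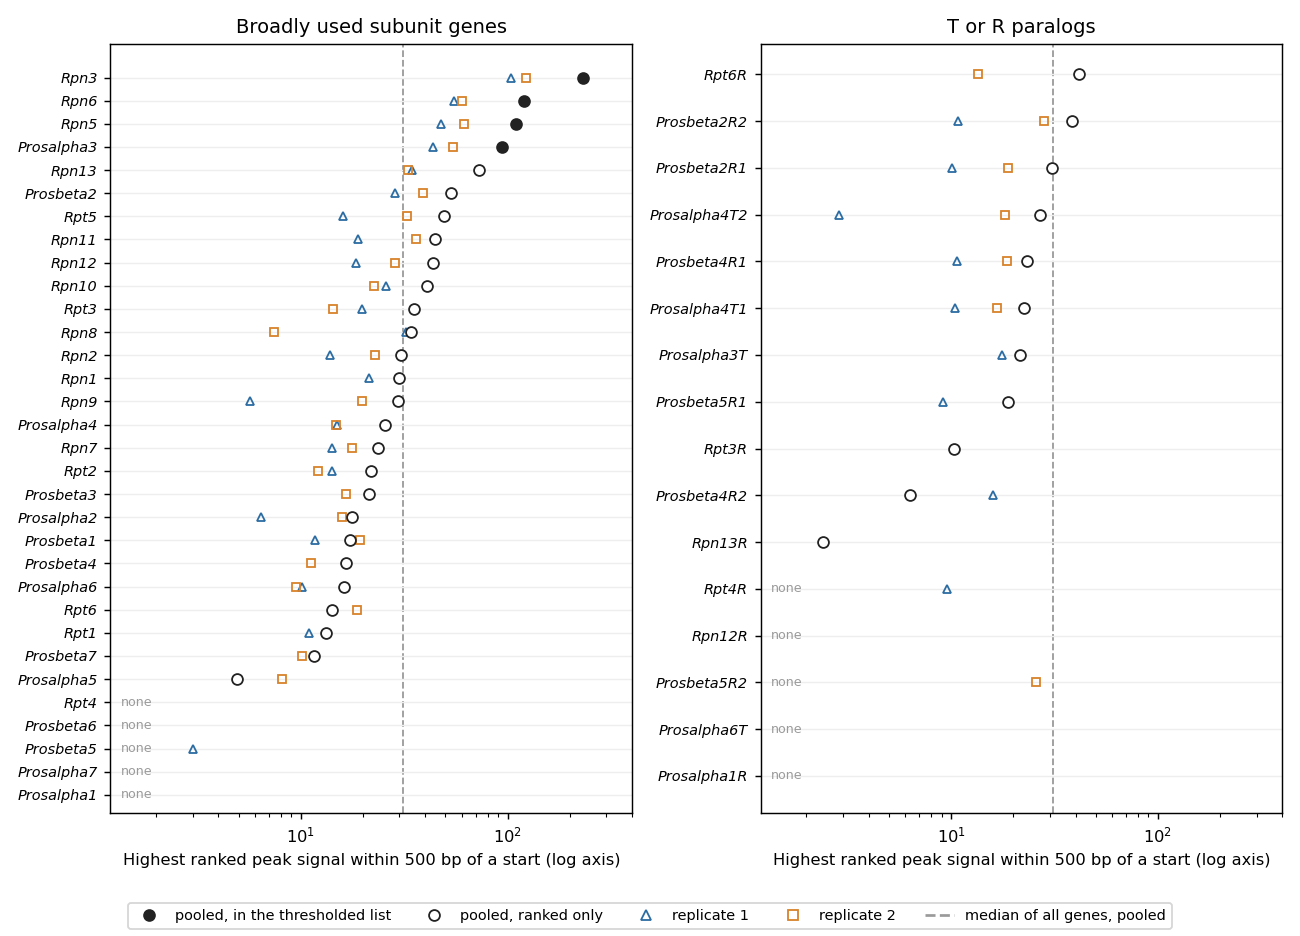
Highest ranked peak signal within 500 bp of a start (horizontal log axis) for each of the 32 broadly used genes and the 16 paralogs, in the pooled ranked list (circles, filled where the peak is in the thresholded list) and in replicates 1 and 2 (triangles and squares), whose scales differ from the pooled one; none marks a gene without a pooled peak. The 4 filled circles run from 94.4 to 231.9, all paralogs lie at or below 41.5, and the dashed line is the median of all genes, 31.0.

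Low or missing ranked peaks at the paralogs were not particular to them. Of the 16, 11 (68.8%, beside 80.8% of all genes) had a ranked pooled promoter peak. Their median signal was 22.6 and the highest 41.5, and 2 exceeded the median of all genes. The median was 22.9 for the 8 of 11 paralog core genes with a peak, and 17.5 for the 10 of 14 broadly used core genes. It was 10.3 for the 3 of 5 paralog regulatory genes with a peak, and 35.1 for the 17 of 18 broadly used regulatory genes. The highest paralog value was at Rpt6R, whose protein is 88.9% identical to Rpt6. Its peak of 41.5 lay 467 bp inside the gene, with an IDR of 0.382 and a value of 13.5 in replicate 2 alone, and Rpt6 itself had 14.1. Prosbeta2R2 followed with 38.6 at −135 bp and an IDR of 0.0988, from 10.8 and 28.1 in the replicates, and Prosbeta2R1 with 30.6, against 53.4 at Prosbeta2. None of these passed the threshold, and the Rpt6R value exceeded those of 66.4% of all genes with a ranked peak.

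The remaining pairs had no common direction. Prosalpha3T had 21.5 against the 94.4 of Prosalpha3. Prosalpha4T1 and Prosalpha4T2 had 22.6 and 26.97 against 25.4 at Prosalpha4. Rpt3R had 10.3 against 35.1 at Rpt3, and Rpn13R had 2.41 against 73.0 at Rpn13. Of these, the Prosalpha3, Rpt3 and Rpn13 pairs had the higher value at the broadly used gene. The pooled IDR was 0.000349 at Prosalpha3 and 0.0133 at Rpn13. All other pooled peaks of the remaining pairs had an IDR of 0.331 (Rpn12) or higher, far outside the threshold. Among them were Rpt3 with 0.357 and Rpt3R with 0.8825, so their gap rests on peaks that were not reproducible.
Prosbeta4R1 had 23.3 and Prosbeta4R2 6.33, on either side of the 16.6 of Prosbeta4. Prosbeta5R1 had 18.9 where Prosbeta5 had no pooled peak, and Prosbeta5R2 had only a peak of 25.8 in replicate 2. Prosalpha6T and Rpn12R had none, beside 16.2 at Prosalpha6 and 43.5 at Rpn12, and Rpt4R had only 9.57 in replicate 1.

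Prosalpha1 and Prosalpha1R could not be measured apart. Their proteins are 100% identical, and their starts are 3093 bp from each other on the arm 2R. The gene spans aligned over 1359 bases and the 500 bases before the starts over 483, all of them identical. No ranked pooled peak lay in the 5469 bp that hold both genes and their flanks, where the arms have 0.979 such peaks per kb, and neither gene had a peak in any of the 8 lists. How reads that match both copies were treated is not given in the sources used here, and its part in the missing peaks was not tested. The absence of a summit at this pair is therefore uncertain, in the counts of both classes.

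Neighbouring genes touched most of the broadly used promoters. Of the 32, 21 (65.6%) had the start of another protein-coding gene within 500 bp of a start of their own, against 3 of 16 paralogs (18.8%) and 30.8% of all genes. Over all genes, 33.7% of those with such a neighbour had a promoter summit and 11.3% of those without. Among the broadly used genes the shares were 3 of 21 (14.3%) and 1 of 11 (9.09%). The paralogs thus differ from the broadly used genes in a feature that goes with summits over the whole genome, and its part in their counts was not tested. Where a summit counted only if no other start was nearer, Rpn5 dropped out and 3 members were left.

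Other peaks lay near members but closer to the starts of other genes. A peak of 162.3 was 1114 bp from the start of Prosbeta6, beyond the end of the gene, and 43 bp from the start of CG4098. Peaks of 92.3 beyond Rpn10 and of 78.2 beyond Rpn2 were nearest to the starts of COX8 (−44 bp) and rdog (−167 bp). A peak of 50.2 at −919 bp from Rpt1 was the nearest one outside the 500 bp window, and it lay closer to CG30491, at −199 bp.

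The promoters of the broadly used genes and of the paralogs differed in sequence content, which the choice of members did not use. The 300 bases from 250 before to 50 after each gene's 5′ end were searched on both strands. The DRE (TATCGATA), the site of the factor DREF known from genes of growth and proliferation, occurred in 12 of 32 broadly used promoters (37.5%), in 0 of 16 paralogs and in 9.36% of all 13968. The sites of 8 of these genes are printed with 10 bases on either side, on the gene's strand and with the DRE in capitals, because they show that the match occurs in both particles.
Prosalpha6, chr2L:10221325-10221352, plus strand: ccgaatccctTATCGATAcccgatacac
Prosbeta2, chr3L:14999931-14999958, plus strand: catgaatataTATCGATAcaatatcgat
Prosbeta6, chr3L:16610445-16610472, minus strand: tatgtataccTATCGATAacgtttaagc
Rpn3, chr2L:19051583-19051610, plus strand: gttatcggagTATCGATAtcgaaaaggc
Rpn7, chr3R:22462034-22462061, minus strand: cggtataattTATCGATAattttggggt
Rpn9, chr3R:23733419-23733446, minus strand: cccggttaaaTATCGATAttctcgcgga
Rpn12, chr3L:16582802-16582829, plus strand: tgttaaaataTATCGATAttaaagcaca
Rpt5, chr3R:23752820-23752847, plus strand: tcgctgtcacTATCGATAagcgccggcg
The sites stood between −216 (Rpn12) and 27 (Rpn9) from the gene start, and those of Prosalpha6, Prosbeta2, Prosbeta6, Rpn7, Rpn9 and Rpt5 within 50 bases of it. The other 4 genes with a DRE were Prosalpha3, Prosalpha5, Prosbeta1 and Rpn13.

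The shares with a summit were higher among promoters with a DRE, on few genes. Of the 12 broadly used genes with a DRE, 2 (16.7%) had a promoter summit, Rpn3 and Prosalpha3, and of the 20 without, 2 (10%) did. These last 2, Rpn6 and Rpn5, had their summits outside the 300 bases searched. The Rpn6 summit lay at the downstream start and the Rpn5 summit at −384 bp. A DRE was thus counted around the gene's 5′ end, and a summit around any start, for these genes and for all genes. Over all genes the shares were 25.3% of 1307 with a DRE and 17.5% of 12653 without. For Rpn3 the DRE stands at −197, apart from its summit, and for Prosalpha3 at −95.

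Other motifs were rarer or less uneven. The core of the M1BP site (GGTCACAC) occurred in 5 of 32 broadly used promoters (15.6%), Prosalpha2, Prosalpha4, Prosbeta3, Rpn1 and Rpn7, in 0 of 16 paralogs and in 7.69% of all. The site of CncC with small Maf (TGACNNNGC), the pair known to raise proteasome gene expression under stress, occurred in 5 broadly used promoters (15.6%), in 1 paralog, Prosbeta4R2, and in 8.62% of all. In Prosbeta3 and Rpn1 this match overlapped the M1BP core, as 7.91% of its matches did over all promoters, so these 2 sets are not independent. None of the 5 broadly used genes with a CncC match had a promoter summit in the pooled list, beside 210 of all 1204 genes with one, and 5 genes are too few to read a difference from.

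The homeodomain core TAATTA was found in 3 of 32 broadly used promoters (9.38%), 2 of 16 paralogs (12.5%) and 20.4% of all, and at none of the 4 member summits, beside 9.24% of all summits. GAGAG occurred in 3 broadly used promoters (9.38%), 6 paralogs (37.5%) and 29.7% of all. TATAAA occurred in 40.6%, 31.2% and 45.8%, and TCAGT, part of the initiator, in 56.2%, 50% and 51.5%. The E-box CACGTG was in no member promoter and 4.2% of all, and CAGCTG was in Rpt3 and Rpt3R and 17.6% of all. The median GC content was 33.5% in broadly used promoters and 32.7% in paralogs, against 38% in all, and its part in these shares was not tested. A match describes letters in a window and is not a measured site.

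**Figure D4:**
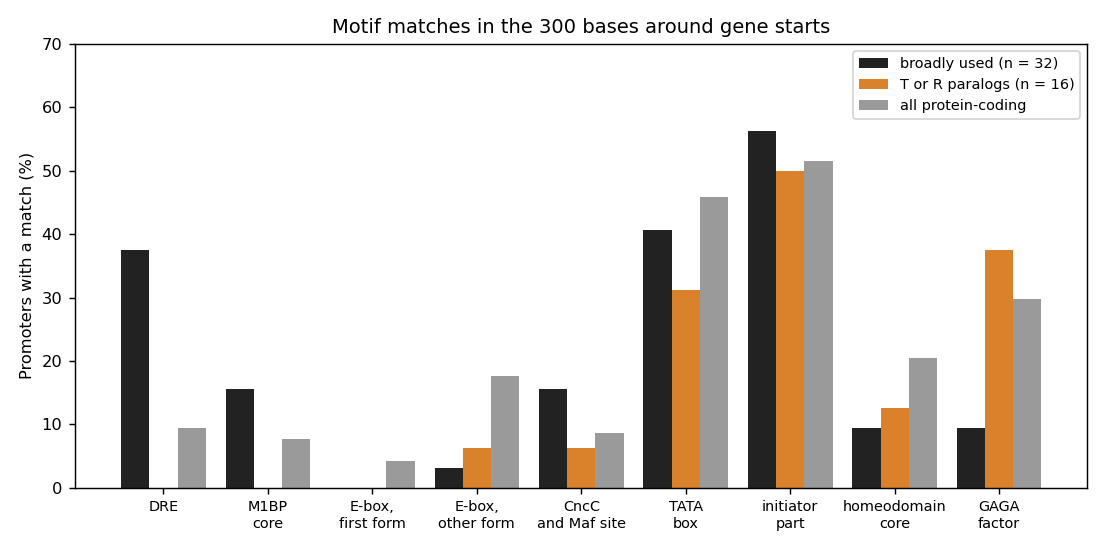
Percentage of promoters with a match to each of 9 motifs (vertical axis) among the broadly used genes, the paralogs and all protein-coding genes. The DRE bar of the broadly used genes reaches 37.5% against 9.36% of all genes and 0 of the paralogs, and for GAGAG the paralogs stand at 37.5% and the broadly used genes at 9.38%.

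Genes that act with the proteasome were counted from a list of 19, of which 18 are in the annotation by the listed name. A promoter summit was found at 5 of the 18 (27.8%), beside 18.2% of all protein-coding genes. These are few genes, and no test was run between the shares. Pomp, the assembly chaperone of the core particle, had a signal of 175.5 at −243 bp in the pooled list, with 86.1 and 88.9 in the replicates. cnc, which encodes the CncC factor, had 2 promoter summits, the higher with 151.3 and with 90.1 and 70.4 in the replicates. Keap1, known as the inhibitor of CncC, had 112.2 at −56 bp, with 60.4 and 54.8. These 3 genes were therefore in both replicate lists.
ntc, an F-box protein that binds the proteasome regulator PI31, had 64.5 at −147 bp, and the polyubiquitin gene Ubi-p63E had 52.4 at −158 bp, neither in a replicate list. Sem1, a small lid subunit that the name rule leaves out, had only a ranked peak of 4.67. REG, PI31, Usp14, Uch-L5, Rad23, Ubqn, TER94, Npl4, Uba1, Ubi-p5E, maf-S and Ubr1 had no promoter summit in the pooled thresholded list.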

How the data were processed

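The members and lists were chosen with earlier results of these data known. ChIP-seq peak lists for 2 replicates were used, on dm6 per the labels. The deposited signal (column 7) is the authors' enrichment value and is not scaled between lists. The deposited score is the authors' IDR score, at least 830 (IDR of 0.01) in the pooled thresholded list. The deposited −log10 q-value and, in ranked lists, −log10 IDR were used as given. The sources used here do not name the peak caller or aligner. Depth is unknown, so no interval is given. Summits were placed on Ensembl release 115 (BDGP6.54), on whose arms all 48 members have RefSeq's interval. The summit search was tested on simulated peaks. Proteins were aligned with Biopython 1.88 in Python 3.11.15. Every member is accounted for, and pooled and replicate signals are given for those with a summit or among the next 5. There was 1 group, so no test was made. 10 alternatives were planned and 2 were added after seeing the data.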

Additional observations from a re-analysis of the deposited data

How the results depend on the processing

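The count of paralogs with a promoter summit was 0 under all 12 alternatives. For some of them this was fixed in advance, because they only take summits away from the pooled list, where the count was already 0. These were q below 0.05, the 250 bp window, no other start nearer, the stronger peaks and the gene's 5′ end only. Of all members, the count went from 4 to 7 with ranked pooled peaks at an IDR of 0.05 or lower (22.3% of all genes) and to 8 with the gene span widened by 1 kb (28.1% of all genes). It stayed between 3 and 6 otherwise, where the share of all genes ran from 8.75% to 21.2%. The broadly used members gave the same 7 and 8. Their share was above that of all genes in the conservative list, in replicate 2 and with peaks that overlap a start (9.38% against 8.75%). It was below that of all genes under the other alternatives. With the looser IDR and the widened span, the broadly used regulatory genes went from 3 to 5 and 6. The broadly used core genes went from 1 to 2 under both, and to 2 with the conservative list. The core count was 0 with only peaks at or above the list's median signal, an alternative chosen after seeing the data, because Prosalpha3 lies just under it. Leaving out replicates, the core count ranged from 0 (without replicate 2) to 1 (without replicate 1). The median signal of members with a summit, 115.3, was 94.4 at the looser IDR, 120.6 within 250 bp, with peaks that overlap a start, with no other start nearer and with the stronger peaks, 110.1 within 1000 bp and at the gene's 5′ end only, and 107.5 in the widened span. No median is given from the replicate lists, whose signal is not on the same scale. No paired analysis was possible because there is 1 group. With 2 replicates of mixed stages, no control and unknown depth, a promoter without a summit was not shown to lack signal.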

Other observations

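The thresholded list leaves out a ranked peak that passes the score, from a search of the starts of the members and of the listed genes that act with the proteasome. At the start of the polyubiquitin gene Ubi-p63E, a ranked pooled peak with a signal of 135.1 and the highest score, 1000, at 3L:3902607-3902902, is absent from the thresholded list, which holds only the weaker one of 52.4. No such peak was found at a start of the 48 proteasome genes.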
